A study of Mus musculus with 24 samples.

Results

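Deep-layer cortical neuron genes are a group of 8 genes that mark projection neurons of layers 5 and 6, and they were followed here through 6 groups of cultured mouse cortical neurons. The members, chosen by symbol with Ensembl identifiers matched without their version, were Fezf2, Bcl11b, Tbr1, Sox5, Foxp2, Tle4, Ldb2 and Crym. All 8 were found among the 45792 genes of the count table, and all 8 were among the 16777 genes left for testing after a filter on low counts. The neurons were grown for 12 days from E16.5 mouse embryos, and polyadenylated RNA was sequenced. The KO cultures carried a knockout of the gene of histone variant H2BE with an mCherry knock-in, and were left as control, given BDNF for 30 min or given BDNF for 24 h. The WT cultures were wild type under the same 3 conditions. Each of the 6 groups had 4 libraries. The replicate number is tied to a culture code in the sample descriptions, so that the 3 libraries of one number within a genotype came from one culture. The sources used here do not say whether cultures came from separate litters or pooled embryos, so p-values measure the spread between these cultures only. The study's title asks whether H2BE controls activity-dependent gene expression, and the deep-layer genes were compared between genotypes and along the BDNF treatment.

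Projection neurons of the deep cortical layers send axons out of the cortex. Layer 5 holds neurons that project to the brainstem and spinal cord, and layer 6 holds neurons that project to the thalamus. Their identities are set during development by transcription factors that repress one another, with Fezf2 and Bcl11b on the layer 5 side and Tbr1 and Sox5 on the layer 6 side. BDNF, brain-derived neurotrophic factor, acts on neurons through the kinase TrkB and induces activity-regulated genes.

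Levels are CPM, counts scaled to a common total with TMM factors, and errors are SD over 4 libraries unless stated. Fold changes are on the log2 scale with their SE, and adjusted p-values are edgeR quasi-likelihood values with Benjamini-Hochberg adjustment over all 16777 genes. A gene counted as changed when its adjusted p was under 0.05. The 24 libraries held 19780486 to 62135270 counts. The targeted gene, Hist2h2be, was higher in KO than in WT libraries, and the counts cover the whole annotated gene, so they separate the genotypes without checking the deletion.

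Some KO libraries stood apart. The share of counts on mitochondrially encoded genes was 10.9% to 21.7% in the 3 libraries of KO culture 4 and 7.52% to 9.34% in those of KO culture 3, against 4.18% to 6.40% in the other 18 libraries. KO 30 min replicate 3 had the lowest total count. An intermediate library was the one labelled KO 24 h replicate 4, with Hist2h2be at 21.2 CPM, while the other KO 24 h libraries lay between 49.98 and 60.9 CPM and the WT 24 h libraries between 3.15 and 3.37 CPM. Most results that rest on the KO 24 h group are therefore given with and without that library. The ranges and closest patterns over the 6 groups are given only with it. The markers of the labelled cell type were present, with the 5 pan-neuronal markers summing to 5240 to 5948 CPM in KO libraries and 5079 to 5814 CPM in WT libraries.

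The promoter windows of 5 members could be read from RefSeq's mouse assembly GRCm38.p6, as 250 bases before and 50 bases after an annotated start, with 2 windows for Tle4. Foxp2, Ldb2 and Crym had no window. Both strands were searched for 4 short motifs. The T-box core, bound by factors of the Tbr1 class, was searched as GGTGTG. For SOX factors such as Sox5 the letters were AACAAT. The TATA box was searched as TATAAA, and one form of the E-box as CAGATG. No match overlapped another. The windows that held such letters are shown, with the matched letters in capitals and each sequence read 5′ to 3′ on the gene's strand. The windows were Tbr1 at chr2:61804203-61804502 (plus strand), Sox5 at chr6:143947057-143947356 (minus strand), Bcl11b at chr12:108003365-108003664 (minus strand) and the second Tle4 start at chr19:14597164-14597463 (minus strand).
Tbr1: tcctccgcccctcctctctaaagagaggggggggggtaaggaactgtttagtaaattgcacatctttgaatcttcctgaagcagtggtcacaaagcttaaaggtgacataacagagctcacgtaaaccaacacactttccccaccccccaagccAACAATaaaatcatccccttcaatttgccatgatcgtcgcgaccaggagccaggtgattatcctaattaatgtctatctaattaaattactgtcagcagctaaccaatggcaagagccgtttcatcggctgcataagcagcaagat
Sox5: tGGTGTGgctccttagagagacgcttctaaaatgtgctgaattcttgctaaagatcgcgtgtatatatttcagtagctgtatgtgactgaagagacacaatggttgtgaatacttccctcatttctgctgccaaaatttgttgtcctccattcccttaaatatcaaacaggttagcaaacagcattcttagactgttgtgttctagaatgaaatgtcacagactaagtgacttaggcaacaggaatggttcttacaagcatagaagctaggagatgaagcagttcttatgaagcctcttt
Bcl11b: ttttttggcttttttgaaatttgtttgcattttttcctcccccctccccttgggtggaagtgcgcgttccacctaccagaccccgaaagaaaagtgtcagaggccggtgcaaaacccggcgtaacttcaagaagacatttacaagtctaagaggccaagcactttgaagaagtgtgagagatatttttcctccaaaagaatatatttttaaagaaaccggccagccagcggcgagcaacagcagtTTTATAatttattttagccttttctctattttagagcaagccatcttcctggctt
Tle4: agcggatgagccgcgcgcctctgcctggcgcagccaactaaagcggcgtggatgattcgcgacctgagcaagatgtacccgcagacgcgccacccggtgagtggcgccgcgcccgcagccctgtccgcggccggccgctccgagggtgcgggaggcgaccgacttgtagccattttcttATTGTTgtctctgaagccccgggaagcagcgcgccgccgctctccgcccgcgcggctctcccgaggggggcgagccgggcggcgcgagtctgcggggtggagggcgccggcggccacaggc

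The SOX letters stood in 2 of the 6 member windows, those of Tbr1 and Tle4, against 10.7% of 32851 mouse promoter windows of the same length. The T-box letters stood in 1 of 6, in Sox5, against 19.05% of all windows, and the TATA letters in 1 of 6, in Bcl11b, against 13.6%. The E-box letters stood in 0 of 6, against 17.2% of all windows. No searched letters were found in the windows of Fezf2 and the other Tle4 start. GC content ran from 39.7% in Sox5 to 73.0% in the second Tle4 window. The Tbr1, Sox5, Bcl11b and Fezf2 windows and the second Tle4 window lie wholly or partly inside the GENCODE span of their gene. A match describes letters only.

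Without BDNF, 7 of the 8 deep-layer genes were lower in KO than in WT neurons, and only Crym was not called. The larger changes were in Ldb2 (-2.75 ± 0.39, adjusted p = 3.41e-05), Foxp2 (-2.64 ± 0.60), Tle4 (-2.18 ± 0.39) and Tbr1 (-1.88 ± 0.30), and the smaller in Fezf2, Sox5 and Bcl11b. Over all tested genes, 21.4% were called in this comparison and 10.1% were called lower in KO. The median log2 fold change was -1.48 over the 8 members and 0.03 over all genes. In bulk RNA, fewer cells of a type and less RNA per cell cannot be told apart.

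**Figure D1:**
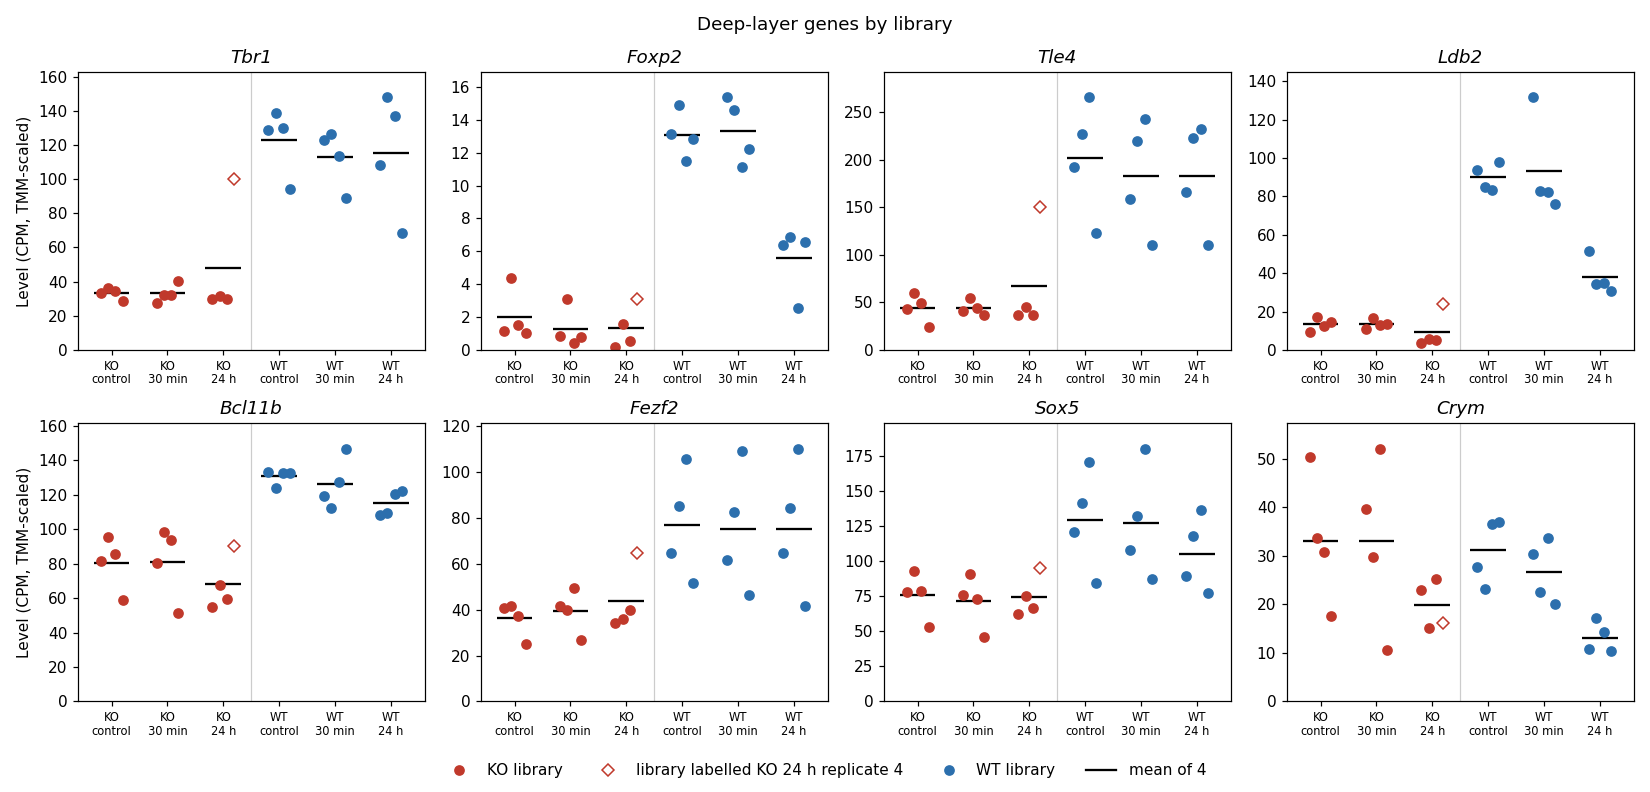
Level of each deep-layer gene in CPM (y axes, each from 0) in every library, by group (x axis); points are libraries, horizontal lines are means of 4, and the open diamond is the library labelled KO 24 h replicate 4. In control cultures all KO points lie below all WT points for 6 of 8 genes, a count not made over all genes. For Tbr1 the KO points lie between 28.8 and 36.02 CPM and the WT points between 94.3 and 139 CPM.

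Fezf2 and Bcl11b encode zinc finger transcription factors that specify layer 5 neurons projecting below the cortex. Fezf2 (chromosome 14, 12342094 to 12348189, minus strand, mm10) stood at 40.7, 41.4, 37.5 and 25.2 CPM in the 4 KO control libraries, against 64.8, 85.3, 106 and 51.5 CPM in the WT control libraries. Every KO value lay below every WT value, and the log2 fold change was -1.08 ± 0.30 (adjusted p = 0.0109, edgeR). Replicate 4 was the lowest library in both genotypes. Bcl11b (chromosome 12, 107910403 to 108003602, minus strand) had 81.8, 95.4, 85.5 and 58.6 CPM in KO control libraries, against 133, 124, 133 and 133 CPM in WT control libraries. The groups did not overlap, the WT libraries were closely grouped, and the log2 fold change was -0.70 ± 0.17 (adjusted p = 0.00431). Bcl11b is also expressed by interneurons and striatal projection neurons.

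Tbr1, Sox5 and Foxp2 encode transcription factors of layer 6 neurons. Tbr1, a T-box factor required for corticothalamic identity (chromosome 2, 61802930 to 61814114, plus strand), had 33.5, 36.02, 34.8 and 28.8 CPM in KO control libraries, against 129, 139, 130 and 94.3 CPM in WT control libraries. The KO libraries differed little among themselves and all lay far below the lowest WT library, at 27.1% of the WT level by the fit (adjusted p = 0.000112). Sox5, which controls the timing of deep-layer neuron production (chromosome 6, 143828425 to 144781977, minus strand), had 77.6, 92.9, 78.5 and 53.3 CPM in KO control libraries, against 121, 141, 170 and 84.0 CPM in WT control libraries. KO replicate 2 exceeded WT replicate 4, so the groups overlapped, with a log2 fold change of -0.77 ± 0.24 (adjusted p = 0.0261). The Sox5 call was lost without KO control replicate 4 (adjusted p = 0.0816), WT control replicate 2 (0.0658) or WT control replicate 3 (0.102).

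Foxp2 encodes a forkhead factor of layer 6 neurons that striatal projection neurons express as well (chromosome 6, 14901349 to 15441977, plus strand). It stood at 1.18, 4.39, 1.495 and 1.06 CPM in KO control libraries, from 22 to 277 counts each, against 13.1, 14.9, 11.5 and 12.8 CPM in WT control libraries. KO replicate 2 was well above the other KO libraries and still below all WT libraries (adjusted p = 0.00286).

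Tle4 and Ldb2 encode cofactors that act with DNA-binding partners. Tle4, a Groucho-family corepressor of layer 6 neurons (chromosome 19, 14448150 to 14598051, minus strand), had 43.2, 59.8, 49.9 and 24.5 CPM in KO control libraries, against 192, 227, 266 and 123 CPM in WT control libraries. The groups did not overlap, although replicate 4 was the lowest in each (adjusted p = 0.000348). Ldb2, which binds LIM-domain transcription factors (chromosome 5, 44472132 to 44799680, minus strand), had 9.41, 17.1, 12.3 and 14.4 CPM in KO control libraries, against 93.8, 84.7, 83.1 and 98.0 CPM in WT control libraries. The KO libraries held 14.8% of the WT level by the fit, and the highest KO library lay far below the lowest WT library. Genes annotated over Ldb2 (11), Sox5 (6) and Foxp2 (1) include none that code for protein, and none averaged above 0.117 CPM in any group.

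Crym encodes mu-crystallin, a thyroid hormone binding protein (chromosome 7, 120186380 to 120202111, minus strand). It had 50.5, 33.7, 30.8 and 17.7 CPM in KO control libraries, against 27.8, 23.2, 36.7 and 37.1 CPM in WT control libraries. The KO libraries spread on both sides of the WT libraries, and the log2 fold change of 0.09 ± 0.34 had a 95% interval of -0.60 to 0.79 (adjusted p = 0.877). Its difference from the other 7 genes was not tested.

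Per kilobase of exon, the scale on which levels of different genes can be compared, Tle4 was the highest member in WT control neurons and only the fourth in KO control neurons. In KO control libraries the mean level per kilobase was 11.9 CPM for Fezf2, 9.90 for Bcl11b, 9.78 for Crym, 7.78 for Tle4, 6.06 for Tbr1, 5.26 for Sox5, 4.00 for Ldb2 and 0.124 for Foxp2. Neighbours in that order overlapped between libraries except Ldb2 and Foxp2. In WT control libraries the order was Tle4 at 35.5 CPM per kilobase, Ldb2 at 26.9, Fezf2 at 25.2, Tbr1 at 22.4, Bcl11b at 16.1, Crym at 9.20, Sox5 at 8.98 and Foxp2 at 0.802. There the first 4 overlapped with their neighbours, as did Crym and Sox5, while Tbr1 and Bcl11b, Bcl11b and Crym, and Sox5 and Foxp2 did not overlap. Foxp2 was the lowest of the 8 in all 6 groups.

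After 30 min of BDNF, the same 7 genes were called lower in KO than in WT neurons, where 28.4% of all tested genes were called and 13.8% were called lower in KO. The log2 fold changes were -3.27 ± 0.62 for Foxp2, -2.79 ± 0.39 for Ldb2, -2.05 ± 0.39 for Tle4, -1.77 ± 0.30 for Tbr1, -0.93 ± 0.29 for Fezf2, -0.83 ± 0.24 for Sox5 and -0.64 ± 0.17 for Bcl11b. Crym stood at 39.7, 29.8, 52.1 and 10.6 CPM in KO 30 min libraries, against 30.5, 22.6, 33.7 and 20.1 CPM in WT 30 min libraries, with an interval of -0.39 to 1.004 for its log2 fold change. All KO libraries lay below all WT libraries for 5 of the 8 genes, a count not made over all genes. Without WT 30 min replicate 3 the Fezf2 and Sox5 calls were lost (adjusted p = 0.0965 and 0.0702), and the Fezf2 call was also lost without KO 30 min replicate 4 (0.0633). Without all of KO culture 4 and KO 30 min replicate 3, Fezf2 (0.0572) and Sox5 (0.102) were not called, which left 5 members, where 13.5% of all genes were called lower in that fit. In control cultures all 7 calls held, where 15% were.

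After 24 h of BDNF, 5 genes were called lower in KO than in WT neurons, Tbr1, Foxp2, Tle4, Ldb2 and Bcl11b, and 6 were called lower without the library labelled KO 24 h replicate 4, Fezf2 being added. Of all tested genes, 13.3% were called and 6.16% were called lower with that library, and 9.34% were called lower without it. Tbr1 had 29.8, 31.9, 29.8 and 100.2 CPM in KO 24 h libraries, against 108, 148, 137 and 68.2 CPM in WT 24 h libraries. Tle4 had 36.8, 45.0, 37.1 and 149.8 CPM in KO 24 h libraries, against 166, 223, 232 and 110 CPM in WT 24 h libraries. In both genes replicate 4 of KO lay among the WT libraries and the other 3 KO libraries lay below them all. The Tbr1 log2 fold change was -1.26 ± 0.30 (adjusted p = 0.00674) with the library and -1.92 ± 0.20 without it, and that of Tle4 was -1.44 ± 0.38 (adjusted p = 0.0144) with it and -2.21 ± 0.32 without it.

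Ldb2 had 3.77, 5.64, 5.15 and 23.8 CPM in KO 24 h libraries, against 51.4, 34.6, 34.8 and 31.0 CPM in WT 24 h libraries. Even replicate 4 of KO lay below every WT library, with a log2 fold change of -1.97 ± 0.38 (adjusted p = 0.00166) and of -2.98 ± 0.24 without that library. Bcl11b likewise did not overlap, at 54.8 to 90.1 CPM in KO 24 h libraries and 108 to 122 CPM in WT 24 h libraries (adjusted p = 0.00450). Foxp2 fell by 2.03 ± 0.60 with the library (adjusted p = 0.0266) and by 2.87 ± 0.64 without it (0.00288). With it, the Foxp2 call was lost on leaving out any of KO 24 h replicates 1 to 3 or WT 24 h replicates 1, 2 or 4 (adjusted p from 0.0503 to 0.0942), and the Tle4 call on leaving out any of KO 24 h replicates 1 to 3 (0.0576 to 0.0626). In an edgeR fit of the compared groups alone, the calls of Tbr1 (adjusted p = 0.0588), Foxp2 (0.0629) and Tle4 (0.0526) were lost. Ldb2 and Bcl11b remained, 2 members where 7.33% of all genes were called lower.

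Fezf2, Sox5 and Crym were not called at 24 h with all libraries. The Fezf2 log2 fold change was -0.79 ± 0.29 (adjusted p = 0.0793), and -1.05 ± 0.31 without the library labelled KO 24 h replicate 4 (0.0191). It also passed without WT 24 h replicate 4 (0.0257). For Sox5 it was -0.49 with an interval of -0.99 to 0.01, and -0.64 without that KO library (adjusted p = 0.101). Crym had a log2 fold change of 0.60 with an interval of -0.11 to 1.30. The library labelled KO 24 h replicate 4 lay 82.3% of the way from the mean of the other KO 24 h libraries to the WT 24 h mean in Tbr1, and between 48.1% and 76.8% in the other 7 genes. Hist2h2be lay 65.2% of that way. For Crym this position says little, because its 16.2 CPM there lay within the other KO 24 h libraries, at 15.1 to 25.3 CPM.

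**Figure D2:**
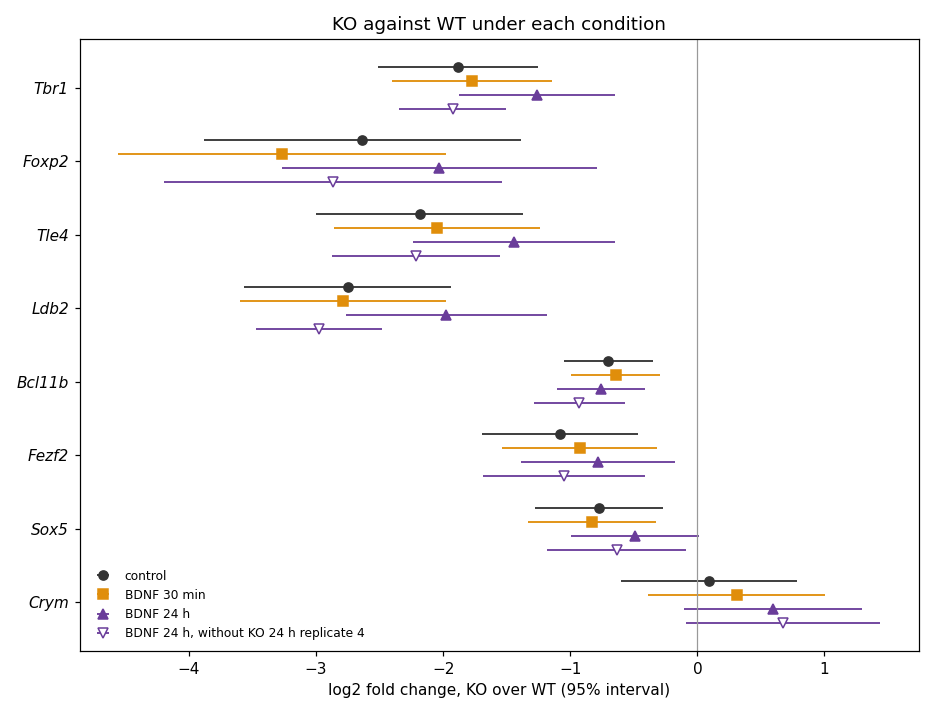
Log2 fold change of KO over WT (x axis) with its 95% interval for each deep-layer gene (y axis) under control, BDNF 30 min and BDNF 24 h; open triangles leave out the library labelled KO 24 h replicate 4. With all libraries the intervals of Tbr1, Foxp2, Tle4, Ldb2, Bcl11b and Fezf2 lie below 0 under all 3 conditions, that of Sox5 reaches 0.01 at 24 h, and those of Crym include 0.

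The cultures fell into a pair of sets by a suffix in the descriptions of their control libraries, with KO culture 1 and WT cultures 1 and 2 in set 1 and the other 5 cultures in set 2. Within control libraries of set 1, 7 of 8 genes were lower in KO, and in set 2 all 8 were, with log2 differences of means from -3.52 to 0.99 in set 1 and from -2.64 to -0.48 in set 2. All KO libraries lay below all WT libraries for 7 genes in each set, but not the same 7. The exception was Crym in set 1, with 1 KO and 2 WT libraries, and Sox5 in set 2. This count was not made over all genes. With set 2 alone in the fit, 3 KO cultures against 2 WT cultures, Tbr1 and Ldb2 were the 2 members called lower in control cultures, where 2.05% of all genes were called lower.

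Other genes of the deep layers were lower in KO as well. From a list of 18 further deep-layer and subplate genes, 11 were called lower and 0 higher in KO control neurons, with a median log2 fold change of -1.26. Hs3st4, which encodes a heparan sulfate sulfotransferase, had a log2 fold change of -2.31 ± 0.34. It stood at 14.3, 22.2, 20.7 and 21.4 CPM in KO control libraries, against 107, 110, 88.0 and 84.6 CPM in WT control libraries, with no overlap. The other 3 with the largest changes were Nxph4, which encodes a neurexophilin (-2.30 ± 0.57), Tshz2, a teashirt zinc finger gene (-2.18 ± 0.60), and Otx1, a homeobox gene of layers 5 and 6 (-2.17 ± 0.48). The 7 that did not pass were Deptor, Pcp4, Rbp4, S100a10, Bcl6, Moxd1 and Cplx3, with log2 fold changes from -0.94 to 1.04.

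The upper layers gave mixed values. Of 14 upper-layer genes, 5 were lower and 1 higher in KO control neurons, with a median of -0.01. Rorb (-1.93 ± 0.38), a nuclear receptor gene of layer 4, and Mdga1 (-1.73 ± 0.27), a cell adhesion gene, fell furthest, followed by Rasgrf2 (-0.94 ± 0.24) and Lmo4 (-0.92 ± 0.15). Cux1, a homeobox gene of the upper layers, was higher. The difference between the lists was not tested.

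**Figure D3:**
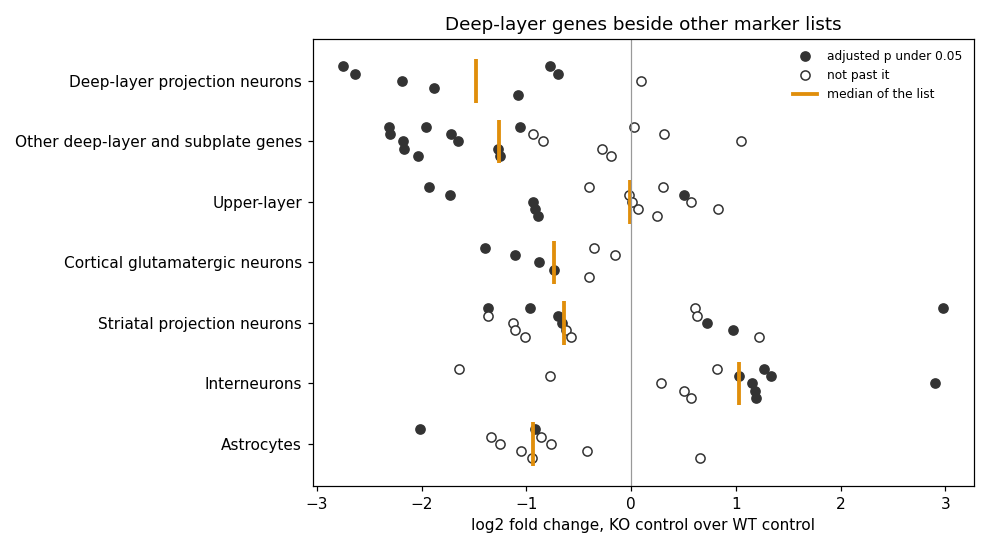
Log2 fold change of KO control over WT control (x axis) for single genes of 7 marker lists (y axis); filled points passed the test and orange lines are list medians. The medians of the 8 deep-layer genes (-1.48) and of the 18 further deep-layer genes (-1.26) lie left of 0, that of the upper-layer genes at -0.01, and that of interneuron markers at 1.03.

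Other marker lists also differed between genotypes, with the called interneuron markers going the opposite way to the deep-layer genes. Of 13 interneuron markers, 7 were called higher and 0 lower in KO control neurons, Gad1, Gad2, Slc32a1, Npy, Lhx6, Nxph1 and Dlx6. Log2 fold changes over the 13 ran in both directions, from -1.64 to 2.90, with a median of 1.03. Over all genes, 21.4% were called in this comparison and 10.1% were called lower. The summed level of the 13 was 2591 to 3488 CPM in KO control libraries, against 1162 to 2356 CPM in WT control libraries. Of the 13, only Vip averaged under 1 CPM in KO control libraries. Of 7 markers of cortical glutamatergic neurons, 4 were lower, Emx1, Neurod2, Neurod6 and Slc17a7, with sums of 547 to 626 CPM in KO control libraries and 715 to 1050 CPM in WT control libraries. Of 10 astrocyte markers 2 were lower, with sums of 185 to 327 CPM in KO control libraries and 462 to 632 CPM in WT control libraries. Their part in the deep-layer result was not tested.

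WT culture 4 had the highest interneuron sums of the WT cultures, 2356, 2617 and 2979 CPM over the control, 30 min and 24 h libraries. Those of KO culture 1 were close, at 2591, 2677 and 2846 CPM, though these single cultures belong to different sets (KO culture 1 to set 1, WT culture 4 to set 2). In these cultures at 24 h, Tbr1 was 29.8 CPM in KO and 68.2 CPM in WT, Tle4 36.8 CPM in KO and 110 CPM in WT, Ldb2 3.77 CPM in KO and 31.0 CPM in WT, and Bcl11b 54.8 CPM in KO and 122 CPM in WT. Fezf2 and Sox5 differed less there, at 34.0 and 62.4 CPM in KO and 41.5 and 77.3 CPM in WT. Foxp2 was 0.153 CPM in KO and 6.54 CPM in WT, and Crym went the other way, at 23.0 CPM in KO and 10.3 CPM in WT. WT culture 4 was the lowest WT culture for Tbr1, Tle4, Fezf2 and Sox5 under all 3 conditions, and not for Bcl11b. The astrocyte sums of the pair still differed at 24 h, 209 CPM in KO culture 1 and 482 CPM in WT culture 4. With 1 culture per genotype, whether the mix of cells bears on the deep-layer genes was not tested.

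**Figure D4:**
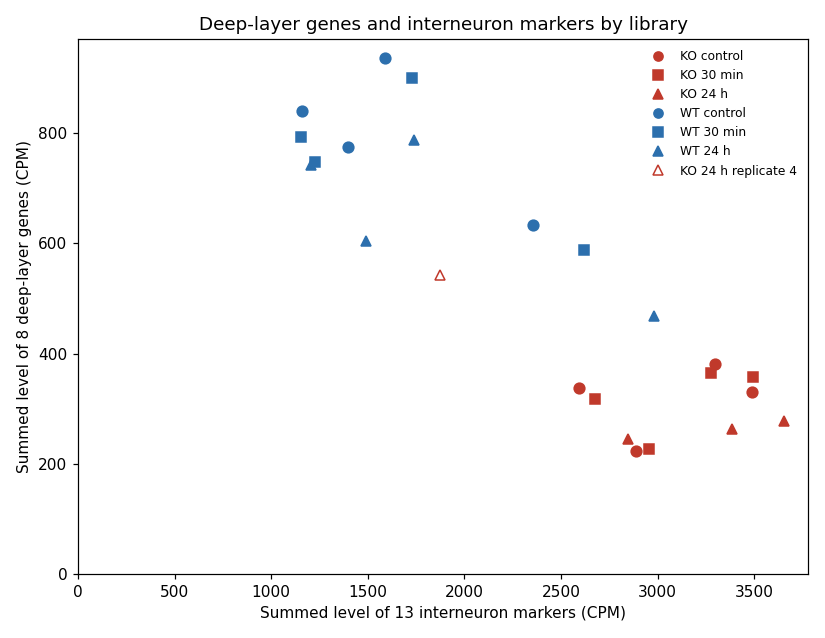
Summed level of the 8 deep-layer genes (y axis, CPM) against the summed level of 13 interneuron markers (x axis, CPM) in each of the 24 libraries; colour gives the genotype, shape the condition, and the open triangle is the library labelled KO 24 h replicate 4. The KO libraries other than that one lie at 224 to 381 CPM of deep-layer genes and the WT libraries at 468 to 936 CPM, with interneuron sums that overlap only through WT culture 4.

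Relative to Slc17a7, the vesicular glutamate transporter gene of cortical excitatory neurons, the KO and WT control libraries did not overlap for 4 genes. This count was not made over all genes. The log2 ratio of KO minus WT control libraries was -2.19 for Foxp2, -2.03 for Ldb2, -1.45 for Tle4 and -1.12 for Tbr1, with no overlap between genotypes. Each reached the smallest p possible in an exact two-sided permutation test, as any groups of 4 without overlap do (p = 0.0286, 0.0571 adjusted over the 8 genes). There were 70 ways to assign 4 against 4. The same difference was 0.03 for Bcl11b, 0.00 for Sox5, -0.31 for Fezf2 and 0.77 for Crym, with overlapping libraries. Slc17a7 itself was lower in KO control neurons (-0.74 ± 0.25, adjusted p = 0.0397), so a member that fell as much as Slc17a7 gives a ratio near 0. This ratio was chosen after the values were seen, so no conclusion is drawn from these p-values.

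After 30 min of BDNF no deep-layer gene passed the threshold in either genotype. In KO, 0 of 8 were called by edgeR's quasi-likelihood test, where 0.125% of all genes were called, and in WT 0 of 8, where 0.37% were. DESeq2 also called 0 in each, where it called 0.0988% of all genes in KO and 0.333% in WT. At an unadjusted p under 0.05 there were 0 in either genotype, a count not made over all genes. The log2 fold changes ran from -0.61 (Foxp2) to 0.12 (Fezf2) in KO and from -0.22 (Crym) to 0.05 (Ldb2) in WT. The narrowest 95% intervals were those of Bcl11b, -0.34 to 0.36 in KO and -0.39 to 0.30 in WT, and the widest those of Foxp2, -1.86 to 0.65 in KO and -1.12 to 1.17 in WT. The difference between the genotypes' responses was called for 0 of 8 genes, where 0.0477% of all genes were called. DESeq2 called 0 as well, where it called 0.0865% of all genes. At an unadjusted p under 0.05 there were also 0, again not counted over all genes.

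Ldb2 and Crym fell in WT neurons after 24 h of BDNF, where 18.7% of all genes were called and 9.13% were called lower. Ldb2 had 51.4, 34.6, 34.8 and 31.0 CPM in the 4 WT 24 h libraries, against 93.8, 84.7, 83.1 and 98.0 CPM in the WT control libraries. The groups did not overlap, and the log2 fold change was -1.24 ± 0.37 (adjusted p = 0.0201). Crym had 10.8, 17.3, 14.2 and 10.3 CPM in WT 24 h libraries, against 27.8, 23.2, 36.7 and 37.1 CPM in WT control libraries, again with no overlap (-1.24 ± 0.34, adjusted p = 0.0121). Without WT 24 h replicate 2, 3 or 4 the Ldb2 call was lost in this unpaired fit (adjusted p from 0.0549 to 0.0558). With the culture as a block and all libraries, Ldb2 had -1.28 ± 0.27 (adjusted p = 0.000972, edgeR) and Crym -1.25 ± 0.25 (adjusted p = 0.000633).

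Foxp2 had 6.37, 6.89, 2.53 and 6.54 CPM in WT 24 h libraries, against 13.1, 14.9, 11.5 and 12.8 CPM in WT control libraries. All 4 cultures were lower at 24 h, and replicate 3 was the lowest. The log2 fold change of -1.23 ± 0.57 did not pass the test (adjusted p = 0.143). With the culture as a block it was -1.29 ± 0.37 and passed (adjusted p = 0.0120), which made 3 members called lower, where 15.7% of all genes were called lower. Tbr1, Tle4, Fezf2, Sox5 and Bcl11b had log2 fold changes between -0.30 and -0.03 in WT at 24 h, and none passed. Bcl11b (log2 differences of -0.30 to -0.12), Sox5 (-0.44 to -0.12) and Tle4 (-0.21 to -0.03) were nevertheless lower at 24 h in all 4 WT cultures, Fezf2 in 3 and Tbr1 in 2. With the compared groups alone in the fit, Bcl11b (-0.19, adjusted p = 0.0341) and Foxp2 (-1.24, adjusted p = 0.00556) passed beside Ldb2 and Crym, 4 members where 16.6% of all genes were called lower.

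In KO neurons at 24 h, 0 of 8 genes passed with all libraries, where 5.61% of all genes were called. DESeq2 also called 0, where it called 9.68% of all genes. Crym alone had an unadjusted p under 0.05, a count not made over all genes. Ldb2 had 3.77, 5.64, 5.15 and 23.8 CPM in KO 24 h libraries, against 9.41, 17.1, 12.3 and 14.4 CPM in KO control libraries. Replicates 1 to 3 were lower at 24 h and replicate 4 was higher. Without the library labelled KO 24 h replicate 4, Ldb2 passed with -1.46 ± 0.23 (adjusted p = 0.000560), 1 member called lower where 2.98% of all genes were called lower. Without all of KO culture 4 and KO 30 min replicate 3, Bcl11b (-0.52, adjusted p = 0.00250) and Crym (-0.85, adjusted p = 0.0402) passed as well, which made 3 members called lower where 4.84% of all genes were.

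Crym had 23.0, 15.1, 25.3 and 16.2 CPM in KO 24 h libraries, against 50.5, 33.7, 30.8 and 17.7 CPM in KO control libraries. It was lower at 24 h in all 4 KO cultures, by 0.12 to 1.16 on the log2 scale, and in all 4 WT cultures, by 0.42 to 1.84. The difference between the KO and WT responses at 24 h was called for 0 of 8 genes with all libraries, where 0.0358% of all genes were called, and for 0 of 8 without the library labelled KO 24 h replicate 4, where 0.0645% were. DESeq2 called 0 with all libraries, where it called 0.417% of all genes. Of the 8, 0 had an unadjusted p under 0.05 with or without that library, a count not made over all genes. For Ldb2 the difference of log2 responses was 0.78 with an interval of -0.31 to 1.86 with that library, and -0.21 with an interval of -0.82 to 0.40 without it. The KO and WT comparisons with control at 30 min and 24 h share their control libraries.

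**Figure D5:**
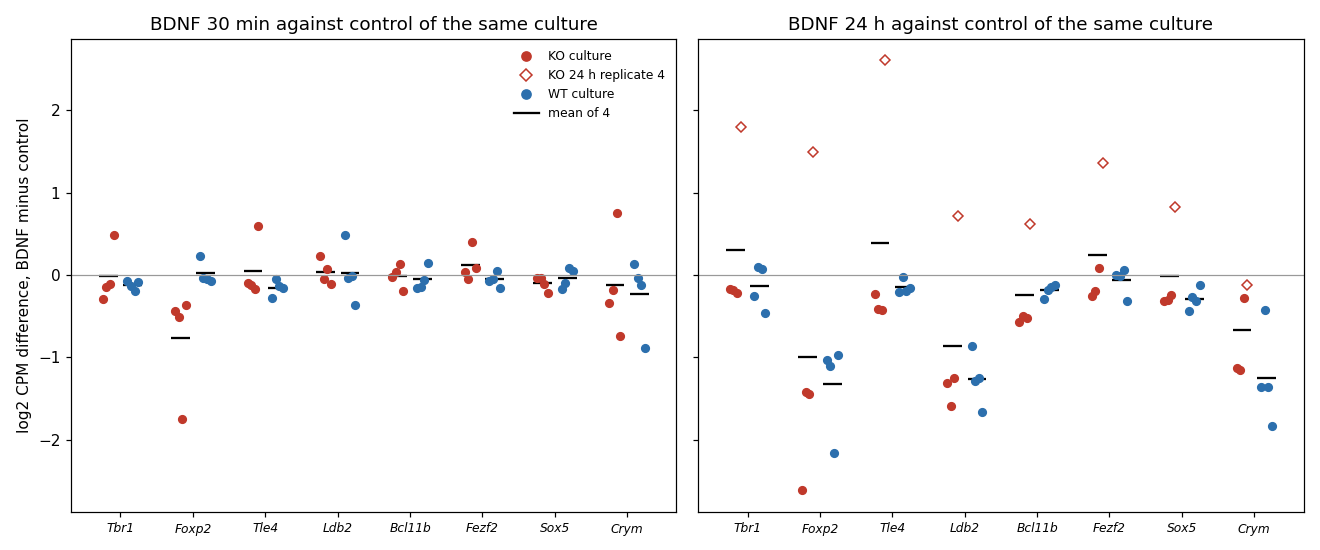
Difference in log2 CPM between each culture's BDNF and control libraries, BDNF minus control (y axis) for each deep-layer gene (x axis), at 30 min and 24 h; points are cultures and lines are means of 4, with the library labelled KO 24 h replicate 4 as an open diamond. At 24 h every WT culture lies below 0 for Ldb2 (-1.66 to -0.87) and Crym (-1.84 to -0.42), as do KO cultures 1 to 3, and the open diamond lies above 0 for 7 of the 8 genes.

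Other layer genes also moved in WT neurons after 24 h of BDNF. Of the 18 further deep-layer genes, 3 were lower and 0 higher at 24 h, Ntsr1 (-2.19 ± 0.29), a neurotensin receptor gene of layer 6, Npr3 (-1.29 ± 0.27), a natriuretic peptide receptor gene, and Rprm (-0.88 ± 0.20). Of the 14 upper-layer genes, 4 were lower, Cux2 (-1.03 ± 0.31), Plxnd1 (-0.82 ± 0.12), Rasgrf2 (-0.73 ± 0.24) and Lhx2, and Pou3f1 was higher (0.76 ± 0.21). In KO at 24 h, with all libraries, Ntsr1 was again lower (-1.91 ± 0.29) and Etv1, an ETS factor gene of layer 5, was higher (0.88 ± 0.25), and these were the 2 called among the 18. Without the library labelled KO 24 h replicate 4, Etv1 was not called (adjusted p = 0.0933, edgeR) and 3 of the 18 were lower, Ntsr1 (-2.31 ± 0.28), Npr3 (-1.02 ± 0.23) and Rprm (-0.54 ± 0.16).

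Over the 6 groups, Foxp2, Ldb2 and Tle4 had the widest ranges of mean log2 CPM, 3.92, 3.66 and 2.20. The 12046 named genes averaging at least 1 CPM were ranked by the root-mean-square difference of their 6 centred group means from each of these. The closest patterns to Foxp2 were those of Ccbe1, Abca8a and Dsc3, at 0.29, 0.36 and 0.37 on the log2 scale. Those closest to Ldb2 were Grm3, Sla and Prss35, at 0.23, 0.25 and 0.28. Tox, Grik3 and Scd1 lay closest to Tle4, at 0.11, 0.13 and 0.14. The other 5 members had ranges from 0.85 in Sox5 to 1.89 in Tbr1. All these group means include the library labelled KO 24 h replicate 4, and ranges and patterns were not recomputed without it. The log2 CPM difference of Tle4 between 24 h and control was 2.61 in KO culture 4 and -0.42 to -0.23 in KO cultures 1 to 3.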

How the data were processed

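Per the labels' protocols, polyadenylated RNA was turned into libraries by a stranded TruSeq kit. For each of 24 libraries the authors deposited unnormalized counts, whole numbers per gene. The submitters' processing notes name STAR 2.7.9a, DESeq2 1.38.3, limma 3.54.2, edgeR 3.40.2 and the build mm10. For the counter, its strand setting and the annotation, nothing is given in the sources used here. Without a stated strand setting, reads of overlapping genes cannot be told apart.

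Symbols and coordinates were taken from GENCODE M21 by identifier, which named 45229 of 45792 genes (98.8%). The test was run in edgeR 4.0.16 under R 4.3.3. The filter was filterByExpr (minimum count 10, total 15). A single quasi-likelihood model with TMM scaling and 1 mean per group was fitted to all 24 libraries (18 residual degrees of freedom, biological coefficient of variation 23.5%). That model treats the libraries of one culture as independent. SE is the size of the log2 fold change over the square root of F. CPM use TMM factors (0.824 to 1.07), and log2 CPM a prior count of 2. Intervals are 95% and cover the spread between libraries. The model was tested on simulated data.

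The members, the marker lists and the comparisons were chosen with earlier results of these data known, so no test was made over a list. All members are named, and at most 4 called genes of the further deep-layer and upper-layer lists, by size of change. Any other named gene of a list was chosen after its values were seen. Libraries of a culture deviated together from their group means (correlations of 0.122 to 0.751, over 0.1 in 24 of 24 pairs), so the code pairs libraries within a genotype. Between genotypes the numbers pair nothing. Alternatives were DESeq2 1.42.0, other scaling, no filter, fewer groups, blocks, sets of cultures and leaving out libraries.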

Additional observations from a re-analysis of the deposited data

Results flagged for a closer look

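Of 48 groups of 4 libraries (8 genes in 6 groups), 8 held a library farther from the others than Dixon's 95% limit for 4 values allows. Chance alone flags about 1 in 20 of independent groups. These groups share libraries and cultures, so their number is not set against that rate. In 3 of the 8 the far library was the one labelled KO 24 h replicate 4, with Tbr1 at 100.2 CPM, Tle4 at 149.8 CPM and Ldb2 at 23.8 CPM, each above the other KO 24 h libraries. Foxp2 was far in KO control replicate 2 at 4.39 CPM and in KO 30 min replicate 2, of the same culture, at 3.08 CPM. In WT 24 h replicate 3 Foxp2 was far below the others at 2.53 CPM. Ldb2 in WT 30 min replicate 1 stood at 131.7 CPM, above the others. Bcl11b in WT control replicate 2 stood at 124.0 CPM, in a group that otherwise differed by under 1 CPM.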

How the results depend on the processing

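DESeq2 called 7, 7 and 6 members for KO against WT in control, at 30 min and at 24 h, against 7, 7 and 5 by edgeR. Of all genes, DESeq2 called 23.5%, 28.4% and 18.9% there, and edgeR 21.4%, 28.4% and 13.3%. RLE scaling, no filter and a term for the set left all counts of called members as they were. With the replicate block by number, KO against WT gave 7, 7 and 5, where 25.2%, 32.4% and 17.4% of all genes were called. With the replicate block by culture, WT at 24 h gave 3 called members in place of 2, where 31.6% of all genes were called, and no other call changed. Fitting only the compared groups gave 2 for KO against WT at 24 h, where 16% of all genes were called, and 4 for WT at 24 h, where 32.3% were. Set 2 alone, with 5 cultures, gave 2, 3 and 0 for KO against WT in control, at 30 min and at 24 h, and 0 for WT at 24 h. Of all genes, that fit called 3.45%, 5.51% and 0.0634% for KO against WT and 1.37% for WT at 24 h. Leaving out KO culture 4 and KO 30 min replicate 3 gave 3 against 0 for KO at 24 h, and 7, 5 and 7 for KO against WT, where 9.43%, 30.6%, 27.4% and 31.2% of all genes were called, with Crym called higher in KO at 24 h (0.69, adjusted p = 0.0335, edgeR). Leaving out 1 library gave 6 to 7, 5 to 7 and 3 to 6 for KO against WT in control, at 30 min and at 24 h, 1 to 2 for WT at 24 h and 0 to 1 for KO at 24 h. The share of all genes called is not listed in this paragraph for RLE scaling, no filter, the set term and leaving out 1 library. No called fold change turned sign under any of these. Of 1280 alternative fold changes, 103 turned sign without a call, all of members whose reported size was at most 0.78. Without the library labelled KO 24 h replicate 4 the KO 24 h mean was 4.85 CPM in place of 9.58 for Ldb2, 39.6 in place of 67.2 for Tle4, 30.5 in place of 47.9 for Tbr1 and 0.760 in place of 1.34 for Foxp2. Depth limits Foxp2 most, which had as few as 8 counts in a KO library.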

Other observations

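Of 16 striatal projection neuron markers, which share Foxp2 and Bcl11b with the deep layers, 3 were higher and 4 lower in KO control neurons, with sums of 354 to 424 CPM in KO control libraries and 217 to 319 CPM in WT control libraries. Log2 fold changes over the 16 ran in both directions, from -1.37 to 2.98, with a median of -0.64. Drd2, Adora2a, Ebf1, Isl1 and Zfp503 averaged under 1 CPM in both control groups, and the other 11 did not. After 30 min of BDNF, 7 of 10 astrocyte markers were called lower in KO than in WT neurons, where 13.8% of all genes were called lower. Against KO control, 0 were lower and 1 higher in KO at 30 min. Among the 5 pan-neuronal markers 2 were lower in KO control neurons. The median log2 fold change of KO over WT control neurons was -0.19 over 6 oligodendrocyte lineage markers, -0.05 over 4 endothelial and fibroblast markers and -0.60 over 6 progenitor markers. Of 4 microglial markers 1 was higher, at sums of at most 4.62 CPM in any control library.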
